A study of Mus musculus with 33 samples.

Results

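A group of 7 cholesterol synthesis genes, out of the 23366 genes in the count tables, was followed in the frontal cortex of mouse offspring by RNA-Seq. They were taken by symbol: Hmgcs1, Idi1, Fdps, Fdft1, Sqle, Dhcr7 and Insig1. The offspring were C57BL/6 mice of about 1 month, and their dams breathed the aerosol by whole-body inhalation through gestation and then together with the pups in lactation. In each sex there were 3 groups, whose dams and pups received filtered air, aerosol of e-cigarettes whose liquid held nicotine at 13 to 16 mg/mL or aerosol of e-cigarettes without nicotine. The groups held 6, 5 and 5 female and 6, 6 and 5 male libraries, 33 in all, each from 1 pup of a separate litter. All groups shared the strain and the age. The sexes were sequenced in separate runs, so a level cannot be compared between them, because sex and run cannot be told apart.

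Cholesterol is made from acetyl-CoA through mevalonate, the isoprenoids and squalene to lanosterol, which later enzymes trim to cholesterol. The pathway is controlled by feedback: when membrane sterol is low, the carrier Scap brings the transcription factors SREBP-1 and SREBP-2 (genes Srebf1 and Srebf2) to the proteases of the Golgi, and the freed factors raise the synthesis genes and Insig1, whose protein holds Scap back. The brain makes nearly all of its own cholesterol, since lipoproteins do not cross the blood-brain barrier, and oligodendrocytes use much of it for myelin in the weeks after birth. Of the 7 genes, 6 code for enzymes and Insig1 codes for the regulator.

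The SREBP proteins bind sterol response elements near a gene's start, often beside sites of the factors NF-Y and Sp1. The RefSeq promoter table (build GRCm38.p6) held entries for 4 of the 7 genes, and the 250 bases before the start are shown 5′ to 3′ on the gene's strand for the 4 starts that the results below turn on: that of Hmgcs1, 2 of the 3 starts of Dhcr7, and that of Insig1. Capitals mark the letters CACNCCAC (a sterol element core), CCAAT (NF-Y) and GGGCGG (Sp1), searched on both strands, so that a match on the opposite strand reads in reverse complement. The windows lie at chr13:119690101-119690350 (Hmgcs1), chr7:143822917-143823166 and chr7:143829964-143830213 (Dhcr7), and chr5:28071162-28071411 (Insig1), all on the + strand.
Hmgcs1: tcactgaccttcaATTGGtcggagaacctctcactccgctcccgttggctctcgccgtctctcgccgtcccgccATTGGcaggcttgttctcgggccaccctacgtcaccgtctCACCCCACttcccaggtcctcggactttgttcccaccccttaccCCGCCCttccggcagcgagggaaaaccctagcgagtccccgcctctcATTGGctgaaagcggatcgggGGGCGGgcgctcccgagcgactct
Dhcr7, start 1: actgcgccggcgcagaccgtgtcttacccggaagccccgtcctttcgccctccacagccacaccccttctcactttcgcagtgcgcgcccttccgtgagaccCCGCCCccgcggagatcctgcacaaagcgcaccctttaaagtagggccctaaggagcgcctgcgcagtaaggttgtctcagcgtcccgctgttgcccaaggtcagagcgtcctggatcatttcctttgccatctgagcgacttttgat
Dhcr7, start 3: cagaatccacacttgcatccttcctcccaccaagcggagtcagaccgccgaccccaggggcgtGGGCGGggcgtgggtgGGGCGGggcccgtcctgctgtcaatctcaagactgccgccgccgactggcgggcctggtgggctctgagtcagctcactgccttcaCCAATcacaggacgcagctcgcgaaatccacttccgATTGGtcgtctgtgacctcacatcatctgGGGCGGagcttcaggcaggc
Insig1: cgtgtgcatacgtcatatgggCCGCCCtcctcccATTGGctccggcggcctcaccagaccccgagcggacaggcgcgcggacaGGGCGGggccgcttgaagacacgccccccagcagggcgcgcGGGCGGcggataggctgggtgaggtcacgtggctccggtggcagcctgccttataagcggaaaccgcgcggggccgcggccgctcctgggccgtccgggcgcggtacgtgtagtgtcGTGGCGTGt
Hmgcs1 and Insig1 held all 3 motifs. Each had 1 CACNCCAC match, at 136 bases before the start in Hmgcs1 and, on the opposite strand, at 9 bases before the start in Insig1. Start 1 of Dhcr7 held 1 GGGCGG match, start 3 held 2 CCAAT and 3 GGGCGG matches, and start 2, not shown, held none of the 3 motifs. Idi1, the other gene with an entry, had 2 CCAAT matches and 1 GGGCGG match. Over all 32851 promoters of the same length, 5.29% held CACNCCAC, 33.8% CCAAT, 32.7% GGGCGG and 0.594% all 3. A match describes these letters and is not a measured binding site.

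The depth of a female library was 19150562 to 27513174 counts, and that of a male library 17845672 to 24787955. Xist RNA, which coats the silenced X chromosome, reached 215 CPM in replicate 21 of the group labelled male nicotine, where the 16 female libraries had 119 to 156 CPM and the other 16 male-labelled libraries at most 0.253 CPM. Y-linked genes had 1 count in replicate 21, at most 3 in a female library, and 2140 to 3247 in the other male-labelled libraries. By these genes replicate 21 looked female. This library was kept under its label, and without it the count of called genes among the 7 was 0 in male nicotine and 1 in male no nicotine against air, as with it. CPM here are counts scaled to the library's size after TMM normalization. Markers of cortical glutamatergic neurons and of myelinating oligodendrocytes were present in every library.

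Hmgcs1, whose enzyme makes HMG-CoA, was listed at 0 counts in all 33 libraries. A count of 0 allows up to 3 counts, which is 0.168 CPM in the smallest library and 0.109 CPM in the largest. The genes that follow it on the chromosome were at 0 as well. In GRCm38.p6, the 5 protein-coding genes that precede Ccl28 near the end of chromosome 13 (Fgf10, Nnt, Paip1, 4833420G17Rik and Tmem267) each had at least 3362 counts in a table. All 9 genes of the count tables from Ccl28 to the end of that chromosome, Hmgcs1 and the zinc finger gene Zfp131 among them, were at 0 in every library, and none of the 9 has an entry in the GENCODE annotation of mm9, the build to which the reads were mapped. All 201 of the 50-base windows of the Hmgcs1 promoter shown above occur in the mm9 sequence, but only on the unplaced sequences NT_110857 and NT_166323 and not on chromosome 13, whereas the promoters of Idi1, Dhcr7 and Insig1 were found on chromosomes 13, 7 and 5. The part of the annotation in the zero was not tested, and Hmgcs1 entered no comparison.

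The 6 other genes differed widely in level. On the scale of CPM per kilobase of the longest annotated transcript, the air libraries of females gave 43.1 ± 2.62 for Sqle (SD, n = 6), 28.4 ± 2.90 for Dhcr7, 12.6 ± 1.43 for Insig1, 7.79 ± 0.468 for Fdft1, 1.40 ± 0.380 for Fdps and 0.449 ± 0.083 for Idi1. The same order held in male air libraries, from 40.5 ± 1.51 for Sqle to 0.509 ± 0.0483 for Idi1 (SD, n = 6). In each sex no range of per-kilobase levels touched that of the next gene in this order. Of the 32 genes of a wider list of sterol synthesis, regulation and uptake that had a position in mm9, Fdps and Idi1 ranked 31 and 32 in both sexes.

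A read of 50 bases can be placed with certainty only where its sequence is found once. In Sqle and Dhcr7, 0% of the 50-base windows of the annotated transcripts occurred elsewhere in mm9. The share was 22.2% in Fdft1, 32.5% in Insig1, 63.2% in Fdps and 84.6% in Idi1, the last 2 being the genes of lowest level. These are exact matches over the whole genome, whereas the study mapped reads to the mm9 transcriptome with mismatches allowed. The shares therefore do not measure how many reads of a gene were ambiguous. How reads with several places were counted is not given in the sources used here, so the levels of Fdps and Idi1 are uncertain, and the part of repeated sequence in them was not tested. Fdft1 (mm9 chr14:63763990-63796630, - strand) also overlaps Ctsb on the opposite strand, and Fdps (chr3:88897514-88905881, - strand) overlaps a U6 gene on its own strand. Whether the counting used strand is not given in the sources used here. The other positions in mm9 are chr13:8884852-8891641 for Idi1, chr15:59146632-59162747 for Sqle, chr7:151009050-151034315 for Dhcr7 and chr5:28397952-28405201 for Insig1, all on the + strand.

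**Figure D1:**
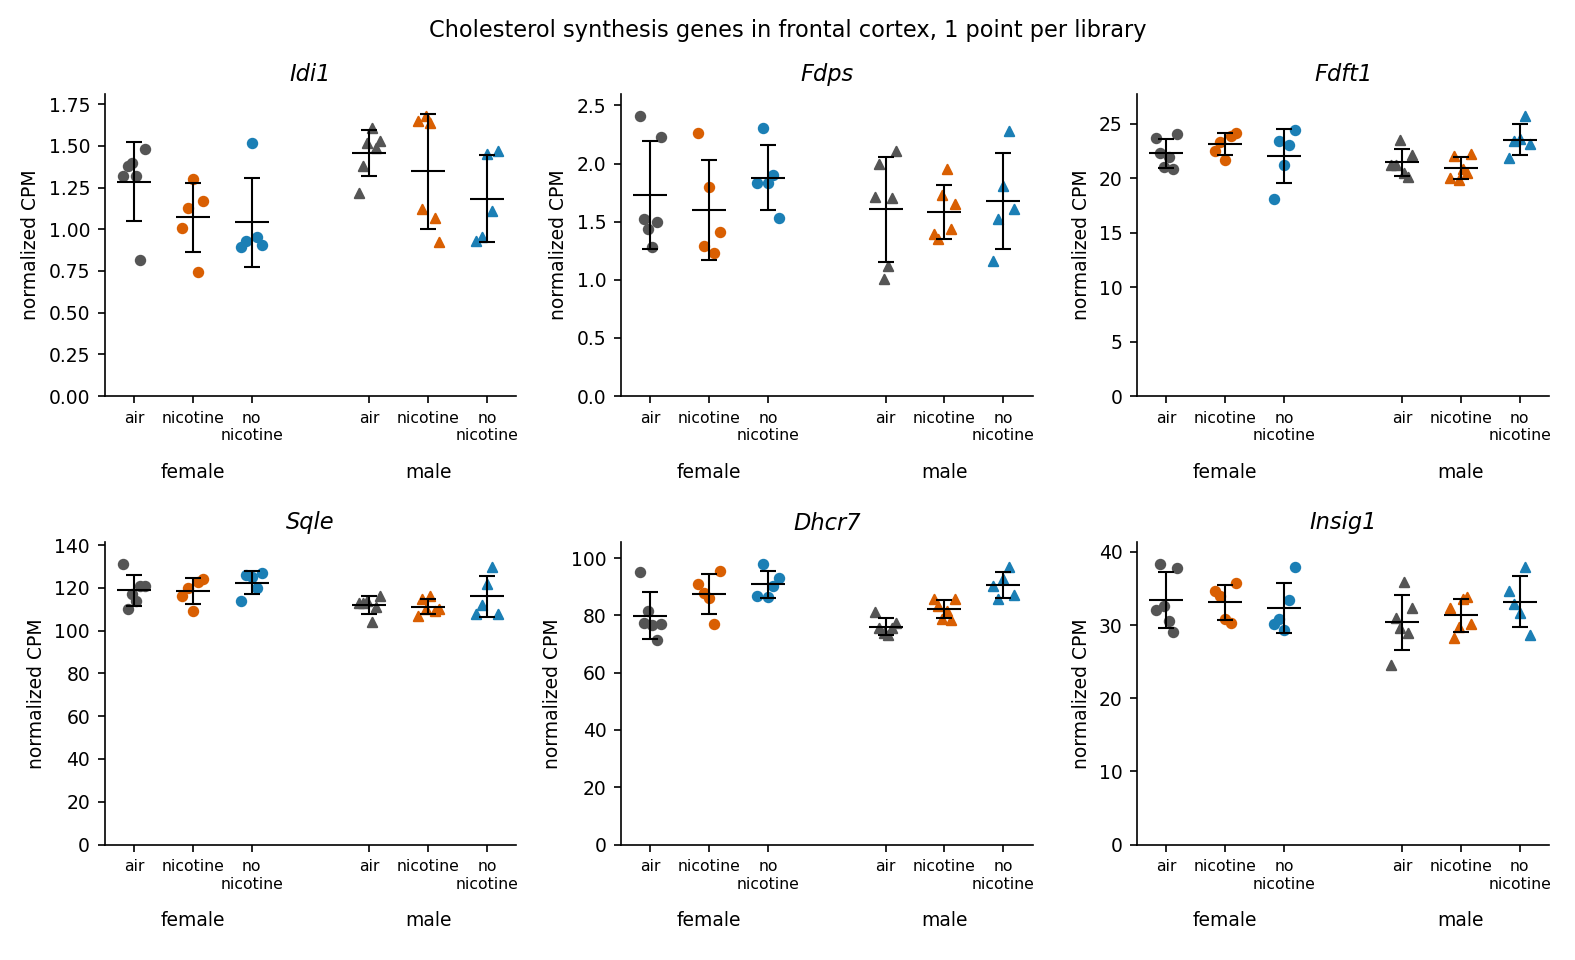
Normalized CPM (vertical axes, from 0) of the 6 genes with counts in each library, by treatment for females (circles) and males (triangles). Bars are the group mean ± SD of 5 or 6 libraries. The male Dhcr7 libraries without nicotine, at 85.6 to 96.8 CPM, lie above all male air libraries, while the groups of the other 5 genes overlap.

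Dhcr7, which makes cholesterol from 7-dehydrocholesterol in the last step of the pathway, was the gene that rose. In male air libraries it stood at 73.0, 73.9, 75.6, 75.6, 77.2 and 81.3 CPM. Male libraries without nicotine gave 85.6, 87.2, 90.3, 92.8 and 96.8 CPM, so that every one was above every air library. The means were 76.1 ± 2.97 (SD, n = 6) and 90.5 ± 4.47 CPM (SD, n = 5), a difference of 18.9% (95% interval 12.3 to 25.9%) or 0.25 on the log2 scale (SE 0.0394, adjusted p = 0.000212, edgeR quasi-likelihood test over 15293 genes). Leaving out each male library in turn gave 0.225 to 0.269 with adjusted p of at most 0.00109. The call was lost with a myelin or a cortical neuron marker score as covariate (0.185 and 0.292, adjusted p of 0.0723 and 0.0787 by edgeR).

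The male nicotine libraries stood between these groups at 78.4, 78.8, 81.5, 83.2, 85.6 and 85.7 CPM, with a mean of 82.2 ± 3.18 (SD, n = 6). They overlapped both the air libraries below and the libraries without nicotine above. Against air the difference was 0.11 on the log2 scale (adjusted p = 0.178 by edgeR), and against no nicotine it was -0.14 (adjusted p = 0.0567 by edgeR). Neither passed the threshold of 0.01. Without the library labelled replicate 21, the values were 0.124 and -0.126, with adjusted p of 0.195 and 0.115 by edgeR.

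In females, Dhcr7 was 71.5, 76.8, 76.9, 77.4, 81.6 and 95.2 CPM in air, 77.0, 86.0, 87.9, 90.8 and 95.6 CPM with nicotine, and 86.5, 86.6, 90.1, 93.2 and 97.8 CPM without nicotine. Air replicate 1, at 95.2 CPM, reached into both exposed groups, and the other 5 air libraries were below all 5 libraries without nicotine. The differences from air were 9.46% with nicotine (log2 0.13, adjusted p = 0.207) and 13.7% without (log2 0.18, adjusted p = 0.0485), neither past the threshold (edgeR, 15158 genes). Without air replicate 1, the second difference was 0.237 on the log2 scale with adjusted p = 0.00484, which passed it, and the first was 0.188. The change in Dhcr7 was not shown to differ between the sexes: the male minus the female change was 0.06 without nicotine (SE 0.0783, adjusted p = 0.971) and -0.03 with nicotine (SE 0.0767, adjusted p = 0.974) on the log2 scale, by edgeR.

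Sqle, squalene epoxidase, which oxidises squalene on the way to lanosterol, had the highest CPM of the 6 genes with counts. Its libraries ran from 110 to 131 CPM in female air, 109 to 124 with nicotine and 114 to 127 without. In males they ran from 104 to 116, 107 to 116 and 108 to 130 CPM. All groups of a sex overlapped. The 95% interval of its change against air was -3.80 to 10.3% in females and -2.99 to 10.9% in males without nicotine, and with nicotine the intervals were -6.88 to 6.85% and -6.93 to 5.79%.

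Fdft1, squalene synthase, which joins 2 farnesyl units and commits them to sterols, was 20.1, 20.5, 21.2, 21.2, 22.1 and 23.5 CPM in male air and 21.8, 23.1, 23.4, 23.6 and 25.7 CPM in males without nicotine. These groups overlap, and the difference of 9.66% (95% interval 1.88 to 18%) did not pass the threshold (log2 0.13, adjusted p = 0.0623 by edgeR). Male nicotine libraries, at 19.8 to 22.2 CPM, were 11% below those without nicotine, again short of the threshold (log2 -0.17, adjusted p = 0.0717 by edgeR). In females the groups ran from 20.8 to 24, 21.7 to 24.1 and 18.1 to 24.4 CPM, and the differences from air were 0.05 with nicotine and -0.02 without on the log2 scale.

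Idi1 and Fdps make the isoprenoid units and farnesyl diphosphate. Idi1 had 17 to 39 counts in a library and Fdps 20 to 53, so that only large differences could be detected. Idi1 means were 1.29 CPM in female air, 1.07 with nicotine and 1.04 without, and 1.46, 1.35 and 1.18 CPM in males. All 4 differences from air were negative, between -0.12 and -0.30 on the log2 scale, and none passed the threshold (adjusted p of 0.267 to 0.817 by edgeR). For Fdps the 4 differences lay between -0.11 and 0.12, with 95% intervals as wide as -30.4 to 23.3% and -17.5 to 43.6% in females.

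Insig1, the gene that retains Scap in the endoplasmic reticulum and is itself raised by SREBP, ran from 29.1 to 38.3 CPM in female air, 30.3 to 35.8 with nicotine and 29.4 to 37.9 without. Male libraries ran from 24.5 to 35.9, 28.3 to 33.9 and 28.7 to 38 CPM. The libraries of each group were spread over those of the others. Its differences from air were -0.01 and -0.05 in females and 0.05 and 0.13 in males on the log2 scale, with nicotine and without, with adjusted p of at least 0.276 by edgeR.

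Of the 7 genes, 6 passed the filter on low counts in both sexes and 1 did not. With edgeR, 0 of the 6 were called in female nicotine against air, where 4.29% of all genes tested were called, and 0 in female no nicotine, where 12.1% were. In male nicotine 0 of 6 were called, as were 0% of all genes, and in male no nicotine 1 of 6 (Dhcr7, higher), against 13.6% of all genes. Between the 2 aerosols, 0 of 6 were called in females, where 0% of all genes were, and 0 in males, where 0.248% were. At an unadjusted p under 0.05, the 6 comparisons in this order counted 0, 1, 1, 2, 0 and 2 of the 6 genes, and 28.1%, 36.4%, 14.4%, 36%, 8.36% and 20.1% of all genes. DESeq2 and limma-voom each gave the same counts of 0 and 1. The groups did not overlap for 0, 0, 0 and 1 of the 6 genes in the 4 comparisons with air, against 6.68%, 10.7%, 2.05% and 12.4% of all genes. The change of 0 of the 6 genes differed between the sexes with nicotine or without, as for 0% of 15105 genes in either case (edgeR, adjusted p of at least 0.885 for the 6, and 0 with DESeq2 and limma-voom).

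The wider list of the pathway held 33 genes with these 7, and 32 were tested. The enzymes were 20, of which 19 were tested. In males without nicotine 17 of the 19 had positive differences from air and 3 were called, all higher, which is 15.8% of them against 13.6% of all genes, 6.15% of all genes being called higher and 7.47% lower. Their median difference was 0.13 on the log2 scale, beside 0.02 over all genes. Besides Dhcr7, the called enzymes were Acat2, a thiolase at the head of the pathway, at 25.3 ± 1.22 in air and 29.6 ± 1.78 CPM without nicotine (SD, n = 6 and 5, log2 0.23, adjusted p = 0.00502 by edgeR), and Cyp51, the first enzyme after lanosterol, at 127 ± 7.16 and 153 ± 19.3 CPM (SD, n = 6 and 5, log2 0.27, adjusted p = 0.00711 by edgeR). In Acat2, 36.3% of the transcript windows occurred elsewhere in mm9. Acat2 lost its call without air replicates 31, 37 or 38 or no nicotine replicates 4 or 5 (0.197 to 0.225), and Cyp51 without air replicates 31, 37, 38 or 39 or no nicotine replicates 4 or 5 (0.221 to 0.278) and with the 2 groups alone (adjusted p = 0.0153 by edgeR).

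In the other comparisons with air, the 19 enzymes had median log2 differences of 0.05 (female nicotine), 0.07 (female no nicotine) and 0.02 (male nicotine). The list was not tested between comparisons. With nicotine, 12 of 19 were positive in females and 12 of 19 in males, and 0 were called in either, where 4.29% and 0% of all genes were. At an unadjusted p under 0.05 there were 5 and 1 of the enzymes, and 28.1% and 14.4% of all genes. In females without nicotine, 14 of 19 were positive and 1 was called, in the lower direction, where 5.03% of all genes were called higher and 7.03% lower. It was Hsd17b7, a reductase that removes a keto group after lanosterol, at 45.5 ± 3.19 in air and 39.7 ± 1.38 CPM (SD, n = 6 and 5, log2 -0.19, adjusted p = 0.0092 by edgeR). Its call was lost without air replicates 2, 4, 5 or 6 or no nicotine replicates 2, 3, 4 or 5 (-0.172 to -0.211), and also with upper quartile factors, with no filter and with the 2 groups alone (adjusted p of 0.0132, 0.013 and 0.0129 by edgeR).

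**Figure D2:**
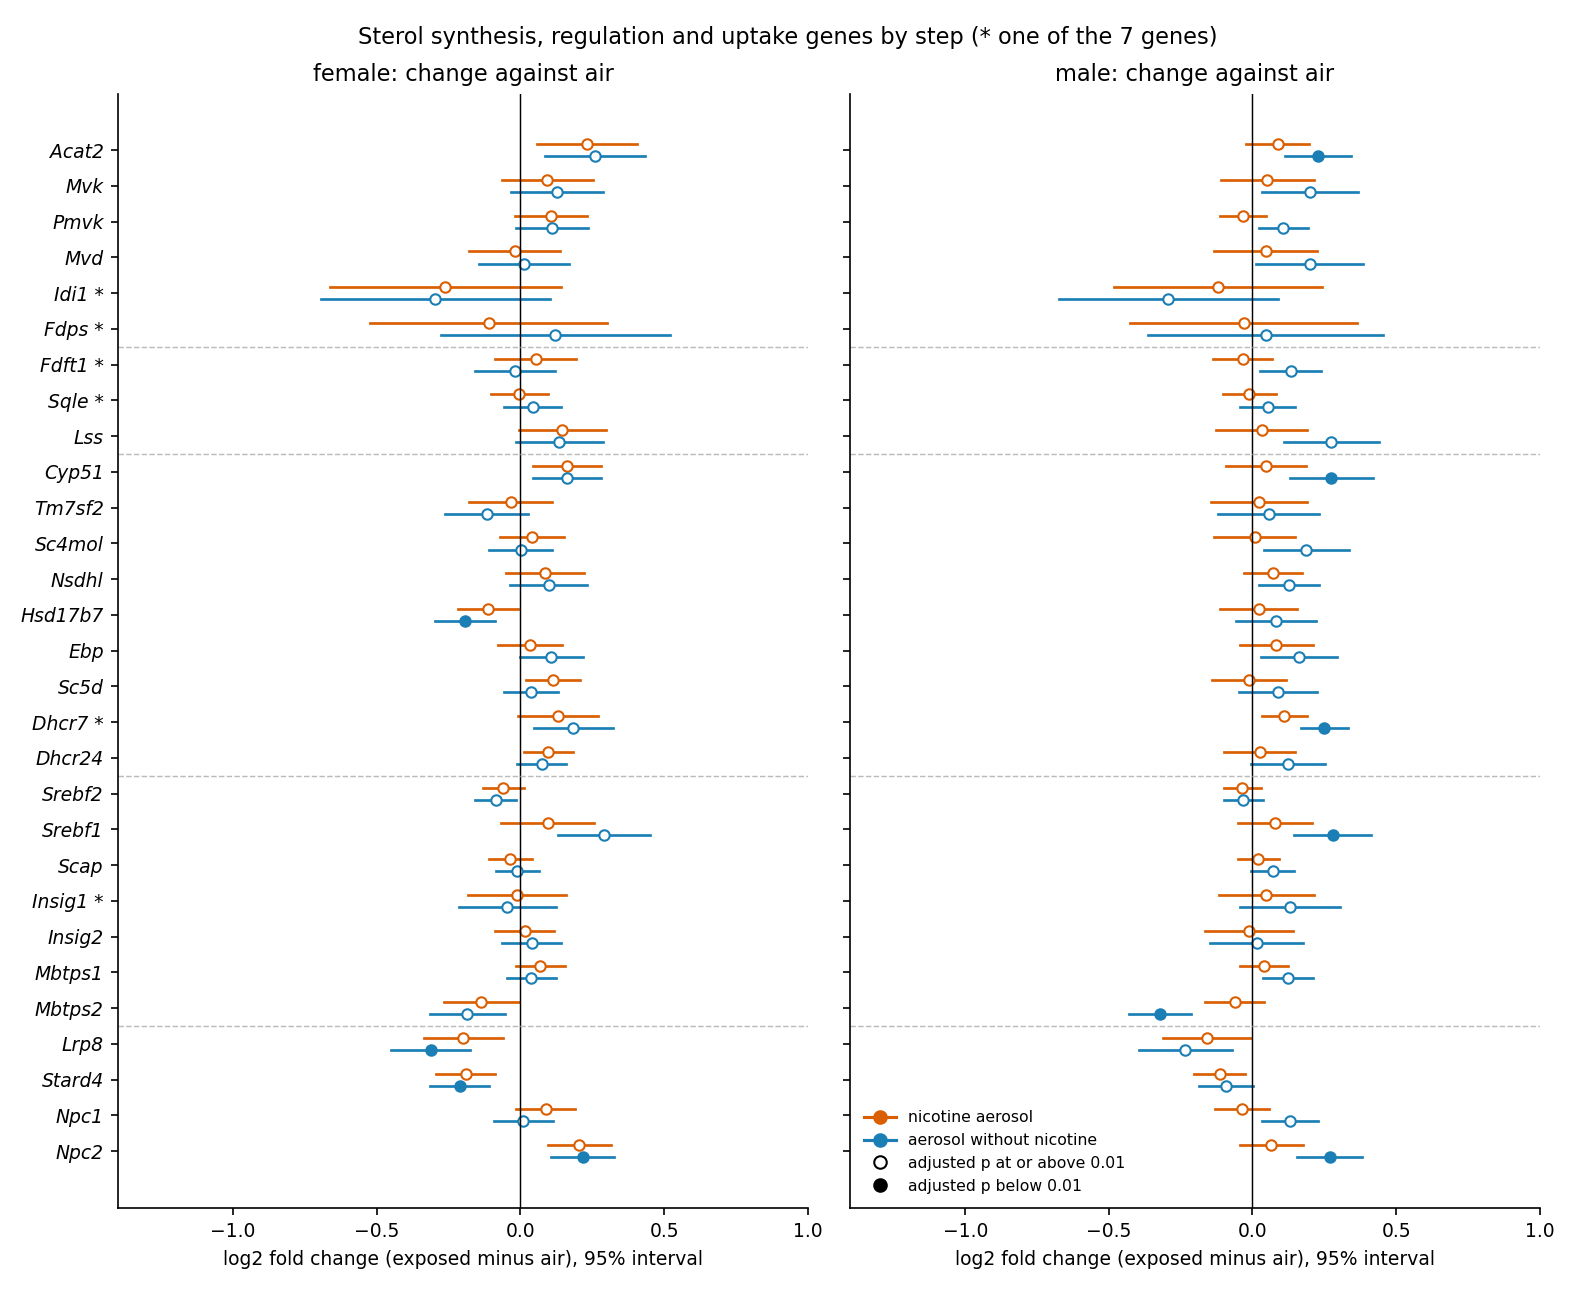
Log2 fold change against air (horizontal axis) with its 95% interval for 29 of the 32 tested genes of sterol synthesis, regulation and uptake, females left and males right. Orange is aerosol with nicotine and blue aerosol without, filled points have an adjusted p below 0.01, and dashed lines part the mevalonate steps, squalene to lanosterol, the later steps, sterol sensing, and uptake. Filled points are 4 in females and 6 in males, all without nicotine, and Dhcr7 is the only one among the starred genes.

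Among the 7 genes of sterol sensing, which include Insig1, 2 were called in males without nicotine, where 13.6% of all genes were. Srebf1, the SREBP gene better known for fatty acid synthesis, rose from 82.9 ± 5.17 to 101 ± 12.1 CPM (SD, n = 6 and 5, log2 0.28, adjusted p = 0.00381 by edgeR). It lost its call without air replicate 38 (0.263, adjusted p = 0.0108 by edgeR) and with the 2 groups alone (adjusted p = 0.0111 by edgeR). Mbtps2, the second of the proteases that free SREBP, fell from 40.3 ± 2.92 to 32.2 ± 1.38 CPM without overlap (SD, n = 6 and 5, log2 -0.32, adjusted p = 0.000225 by edgeR). In females without nicotine the values were 0.29 for Srebf1 (adjusted p = 0.0102) and -0.18 for Mbtps2 on the log2 scale, and 0 of the 7 were called by edgeR, with 3 at an unadjusted p under 0.05. Srebf2, the SREBP gene of the cholesterol enzymes, was at 327 and 320 CPM in males (adjusted p = 0.515 by edgeR). Srebf1 and Mbtps2 overlap other genes in mm9, Rai1 on the opposite strand and Yy2 on the same strand.

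Of the 6 genes of sterol uptake and transport, 50% were called in females without nicotine and 33.3% in males, where 12.1% and 13.6% of all genes were. Npc2, which carries cholesterol out of lysosomes, rose without nicotine in both sexes, from 123 ± 7.92 to 143 ± 6.61 CPM in females (SD, n = 6 and 5, log2 0.22, adjusted p = 0.00641 by edgeR) and from 119 ± 4.13 to 144 ± 15.7 in males (SD, n = 6 and 5, log2 0.27, adjusted p = 0.00148 by edgeR). In females, Lrp8, a receptor for apolipoprotein E and reelin, fell from 75.9 ± 4.23 to 61.1 ± 5.90 CPM (SD, n = 6 and 5, log2 -0.31, adjusted p = 0.00305 by edgeR), and Stard4, a sterol carrier, from 33.3 ± 2.33 to 28.8 ± 0.685 CPM (SD, n = 6 and 5, log2 -0.21, adjusted p = 0.00524 by edgeR). Several of these calls were lost when 1 library was left out, while the differences kept their sign and the adjusted p stayed at or below 0.0226 by edgeR. In females, Npc2 lost its call without air replicates 2, 3, 5 or 6 or no nicotine replicates 2, 3 or 5 (0.182 to 0.222), Stard4 without air replicates 2, 4 or 6 or no nicotine replicates 2, 3, 4 or 5 (-0.200 to -0.221), and Lrp8 without no nicotine replicates 2 or 5 (-0.300 and -0.269).

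Over the whole list, by edgeR, 0 of 32 genes were called in female nicotine and 4 in female no nicotine (12.5%), where 4.29% and 12.1% of all genes were. In males, 0 were called with nicotine and 7 without (21.9%), where 0% and 13.6% of all genes were. Between the 2 aerosols 0 of the list were called in either sex, where 0% (females) and 0.248% (males) of all genes were. At an unadjusted p under 0.05 there were 10, 12, 3 and 19 against air, and 1 and 13 between the aerosols in females and males, where the shares of all genes were 28.1%, 36.4%, 14.4% and 36%, and 8.36% and 20.1%. DESeq2 counted 2, 6, 0 and 8 against air and 0 and 1 between the aerosols, and limma-voom 0, 6, 0, 8, 0 and 0. The 4 calls of females became 6 without air replicate 1, 2 without air replicates 2 or 5 or no nicotine replicate 4, 1 without air replicate 6 or no nicotine replicate 3, and 0 without no nicotine replicates 2 or 5. The 7 calls of males became 4 without air replicate 31 or no nicotine replicate 4 and 3 without air replicate 38. In males the 19 enzymes were lower with nicotine than without in all but 1 case, with a median of -0.10 on the log2 scale beside -0.01 over all genes, and 0 of these differences were called by edgeR (7 at an unadjusted p under 0.05).

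Neighbouring branches were read with the same test. Of 9 genes of fatty acid synthesis, 3 rose in females and 4 in males without nicotine, where 5.03% and 6.15% of all genes were called higher. Acly, which supplies the cytosolic acetyl-CoA that both lipid pathways use, rose by 0.49 in females and 0.42 in males on the log2 scale (adjusted p of 0.00114 and 0.000282 by edgeR). Scd2, a desaturase of the brain, rose by 0.29 and 0.27 (adjusted p of 0.0026 and 0.000416 by edgeR). Scd1 rose by 0.36 and 0.28 (adjusted p of 0.00969 and 0.00476 by edgeR), and Elovl6, an elongase, rose by 0.38 in males (adjusted p = 0.000297 by edgeR). Scd1 lost its call without each of 12 female and each of 5 male libraries (0.313 to 0.376 and 0.238 to 0.279) and in males with the 2 groups alone (adjusted p = 0.0125 by edgeR), and Scd2 without female no nicotine replicate 2 (0.265). Of 6 genes of the isoprenoid branch, 1 was called without nicotine in each sex, which is 16.7% against 12.1% and 13.6% of all genes. It was Fnta, a subunit of farnesyltransferase, which rose by 0.25 in females and 0.27 in males (adjusted p of 0.00593 and 0.000204 by edgeR). The female call was lost without each of 7 libraries (0.212 to 0.257) and with the 2 groups alone (adjusted p = 0.013 by edgeR). Of 9 genes of sterol efflux and turnover, 1 was called, in females without nicotine, which is 11.1% against 12.1% of all genes. It was Cyp46a1, the neuronal enzyme that turns cholesterol over to 24-hydroxycholesterol, at 211 ± 8.14 in female air and 168 ± 22.5 CPM without nicotine (SD, n = 6 and 5, log2 -0.33, adjusted p = 0.00454 by edgeR). Its call was lost without air replicates 5 or 6 or no nicotine replicates 2, 3 or 5 (-0.282 to -0.337). With the myelin or the cortical neuron score as a covariate, none of these calls remained. With the myelin and the cortical score, Acly then stood at 0.123 and 0.0598 in females and 0.33 and 0.129 in males, and Cyp46a1 at -0.0532 and -0.0713. Some male differences stayed as large: Fnta was at 0.253 and 0.245, Scd1 at 0.378 and 0.192, Elovl6 at 0.16 and 0.349 and Scd2 at 0.158 and 0.212.

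The genes were set beside markers of the cells in the tissue, since in bulk tissue fewer cells of a type and less RNA per cell cannot be told apart. Of 13 markers of myelinating oligodendrocytes, 13 were called higher in female nicotine, 12 in female no nicotine, 0 in male nicotine and 11 in male no nicotine, with median differences of 0.69, 0.61, 0.17 and 0.68 on the log2 scale. The shares of all genes called were 4.29%, 12.1%, 0% and 13.6%. None of the 13 was at 0 in any library. Their summed level was 8921 to 10810 CPM in female air, 14580 to 18590 with nicotine and 12010 to 18140 without. In males it was 10290 to 12660, 10500 to 16300 and 15020 to 25700 CPM. In female nicotine 12 of the 13 markers did not overlap with air (6.68% of all genes), and the median difference of the 6 sterol genes was -0.01 on the log2 scale. In male no nicotine 8 of the 13 did not overlap (12.4% of all genes), and that median was 0.09. With the myelin score as a covariate the male Dhcr7 difference without nicotine was 0.185 (adjusted p = 0.0723 by edgeR) and with the cortical neuron score 0.292 (adjusted p = 0.0787 by edgeR), and neither covariate fit called any of the 32 genes in that comparison. The covariates differ between the groups themselves, and their part in the change was not tested.

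In the same 4 comparisons, 4.29%, 12.1%, 0% and 13.6% of all genes were called. Of 12 markers of cortical glutamatergic neurons, 1, 10, 0 and 9 were called lower in them, with medians of -0.63, -0.91, -0.35 and -0.69. Their summed level was 3009 to 3838, 2051 to 2804 and 1284 to 2880 CPM in females and 2862 to 3393, 2071 to 2816 and 1114 to 2115 CPM in males, in the order air, nicotine and no nicotine. Of 9 markers of striatal projection neurons, 3, 1, 0 and 2 were called higher, with medians of 0.75, 0.46, 0.33 and 0.72. Of 9 astrocyte markers, 0, 0, 0 and 1 were called (11.1% in male no nicotine, near the share of all genes), with medians between 0.02 and 0.08. Of 6 markers of oligodendrocyte precursors, 2, 3, 0 and 3 were called, all higher, with medians of 0.16, 0.32, 0.06 and 0.30. Of 6 interneuron markers, 2, 3, 0 and 2 were called higher and 1, 1, 0 and 1 lower. Of 8 microglia markers 0 were called in each comparison, and of 7 endothelial markers 1 was, in male no nicotine (14.3%, near the share of all genes). Of 5 choroid plexus markers, 2 were called higher in male no nicotine, with a median of 1.44. Their summed level there was 28.33 to 50.7 CPM in 4 libraries and 940.9 CPM in replicate 7, and without that library the male Dhcr7 difference was 0.263 on the log2 scale. The part of this marker shift in the sterol genes was not tested.

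**Figure D3:**
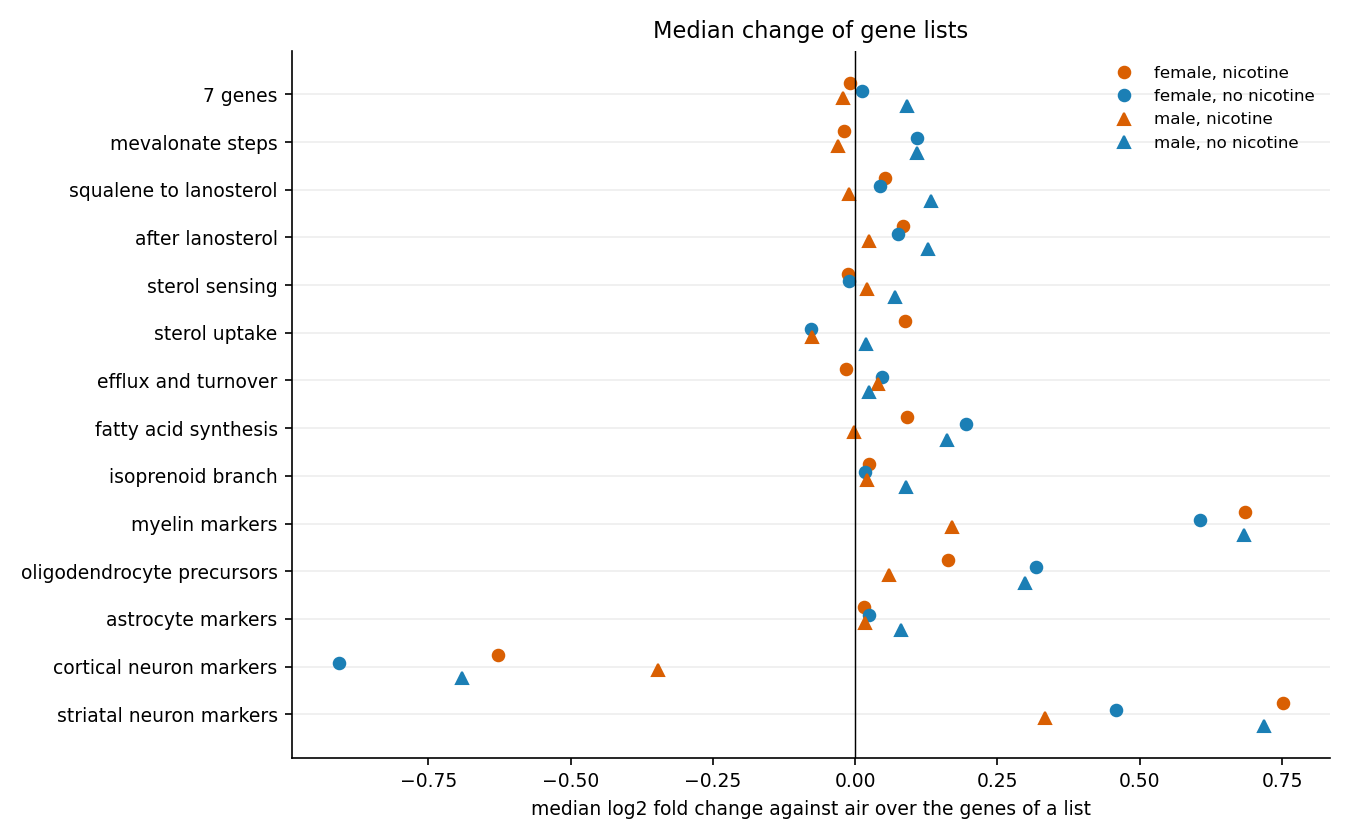
Median log2 fold change against air (horizontal axis) over the tested genes of each list, for females (circles) and males (triangles) with nicotine (orange) and without (blue). The sterol synthesis lists reach 0.13 at most, whereas the myelin markers reach 0.69 and the cortical neuron markers -0.91.

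**Figure D4:**
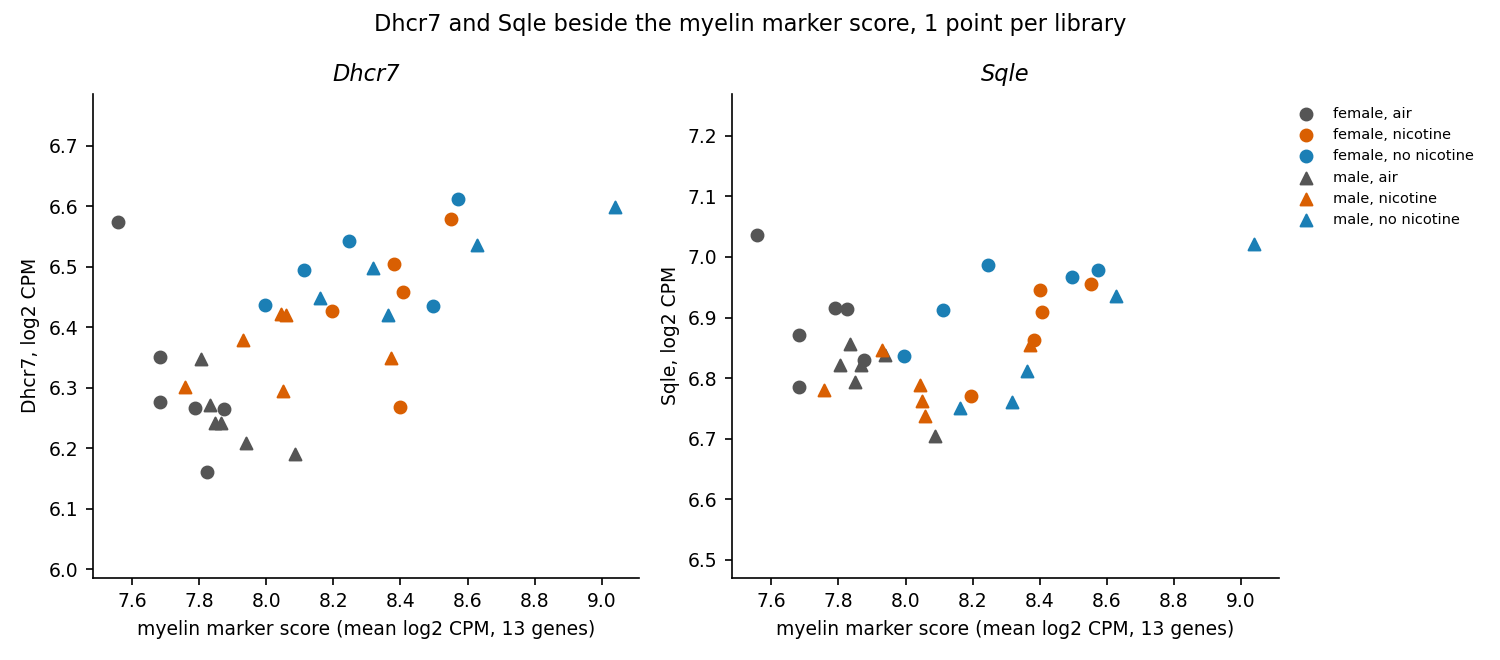
Log2 CPM of Dhcr7 (left) and Sqle (right) against the mean log2 CPM of 13 myelin markers (horizontal axis), 1 point per library, coloured by treatment, with circles for females and triangles for males. The myelin score runs from 7.806 to 8.087 in male air and from 8.161 to 9.038 in males without nicotine, where Dhcr7 lies at 85.6 to 96.8 CPM. The sexes share the axes but were sequenced in separate runs, so their levels cannot be compared.

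The genes whose level followed the mean log2 CPM of the 7 most closely were sought among 11317 genes with a mean of at least 5 CPM. After the group means were removed, the 8 nearest were Idh1, Lss, Use1, Cyp51, Hacl1, Afg3l1, Zfp36 and Frmd4a, with a mean Pearson r over the sexes of 0.722 for Idh1 down to 0.649 for Frmd4a (16 female and 17 male libraries, given as a description). Lss and Cyp51, lanosterol synthase and the next enzyme, are in the pathway list. With the group means kept, 7 of the 8 nearest were Bcl2l1, Sc4mol, Use1, Lss, Hacl1, Stx2 and Zfp36 (0.639 to 0.606), and the other had its symbol turned into a date. Sc4mol is the sterol methyl oxidase of the pathway. Over the 13 myelin markers, the r within groups ran from -0.275 (Opalin) to 0.309 (Mbp) in females. In males it ran from 0.185 (Aspa) to 0.642 (Mag), with Mbp at 0.565. The points share their run and their library's depth, and Idi1 and Fdps, which rest on few counts, weigh as much in the mean as the abundant genes.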

How the data were processed

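RNA of the frontal cortex of 33 mice was measured by RNA-Seq. The authors deposited raw counts per gene, in 1 table per sex with 23366 rows, made from single reads of 50 bases mapped to the mm9 transcriptome with Bowtie, stripped of duplicate reads by SAMtools and counted with HTSeq, per the study's methods and the submitters' processing notes. Removal of duplicates lowers the counts of highly expressed short transcripts most. The authors also deposited normalized tables, which were not used. The count tables held 34 columns, and 1 of them, which matched no label, was left out of every step, leaving 33. Totals were 17845672 to 27513174 counts per library. The floor of 3 counts covers counting error only.

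Groups were taken from the sample labels, and per its methods the study had set aside outlying samples of each sex and used 1 pup per litter. A gene entered the test if its CPM, added over the libraries of a sex, came to at least 5. The test was edgeR's quasi-likelihood test (edgeR 4.0.16, R 4.3.3) after TMM normalization, with the 3 groups of a sex in 1 fit. All p were adjusted over all genes tested (Benjamini-Hochberg), and genes with an adjusted p below 0.01 were called. The male minus female change was tested in a fit of 6 groups. The code was tested on simulated data. Log2 CPM used a prior count of 1. Litters were separate, so p measure the spread between animals. The study exposed mice in 3 separate chambers, and if each served 1 treatment, chamber and treatment cannot be told apart. Over pairs of libraries of a group, counts differed by more than sampling noise, so each was counted as 1 sample.

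The 7 genes and all lists were chosen with earlier results of these data known. Named genes are the 7, then, for each other list and comparison, up to 4 genes of smallest unadjusted p, from which those called are described, with Srebf2 added as a known control of the pathway. Some genes of the lists are counted but not reported here. The alike genes are the 8 of highest mean r. Alternatives were DESeq2 1.42.0, limma-voom (limma 3.58.1), RLE and upper quartile factors, no filter and a minimum of 20, the 2 groups alone, marker scores as covariates, the replicate number as a block and leaving out each library. Gene positions come from GENCODE M1 on mm9. The windows of 50 bases of all protein-coding transcripts of a gene were counted as occurring elsewhere when an exact match on either strand lay outside the gene. Promoters come from RefSeq.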

Additional observations from a re-analysis of the deposited data

Results flagged for a closer look

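In 48 groups of 5 or 6 libraries (the level of a gene or marker score in 1 group), the highest or lowest library was compared with its nearest neighbour by Dixon's criterion at the 95% level, which chance passes in about 1 of 20 groups. In 2 groups a library stood apart, both for Idi1, the isomerase with 17 to 39 counts per library. Female air replicate 5 had 0.816 CPM where the nearest library had 1.32, a gap of 0.759 of the group's range. Female no nicotine replicate 3 had 1.52 CPM where the nearest had 0.951, a gap of 0.912 of the range. Without the first, the female difference with nicotine was -0.363 on the log2 scale, and without the second the difference without nicotine was -0.479 (adjusted p = 0.0777 by edgeR), neither past the threshold.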

How the results depend on the processing

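The male Dhcr7 call without nicotine held under every alternative run except the 2 marker covariates, under which 0 of the 7 genes and 0 of the pathway genes were called in males without nicotine, and 0 pathway genes in females without nicotine. DESeq2 called 2 pathway genes in female nicotine and 1 between the aerosols in males. Leaving out each library in turn, the pathway calls ran from 0 to 1 in female nicotine, 0 to 6 in female no nicotine, 3 to 8 in male no nicotine and 0 to 1 between the male aerosols, and the calls among the 7 genes from 0 to 1 in female no nicotine. The counts of genes whose change differed between the sexes stayed at 0. The female replicate numbers did not pair the samples (14 same-numbered pairs, r of -0.273 to 0.266, 4 above 0.1, and 9 of 28 comparisons best with the own number). With the replicate block, 1 pathway gene was called in female no nicotine, the calls of Hsd17b7, Npc2, Stard4, Cyp46a1 and Scd1 being lost there (adjusted p of 0.0107 to 0.0261 by edgeR), and calls among the 7 genes were as without it. Male groups share no number.

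Some differences changed sign, none of them called among the 7 genes, and the cause was not tested. Not all of them began near 0, as Insig1 in male no nicotine was 0.13 in the main test. With limma-voom the values were 0.00355 for Sqle in female nicotine, 0.0124 for Fdft1 in female no nicotine and -0.00912 for Fdps in male no nicotine. Upper quartile factors gave 0.0167 for Sqle and 0.00742 for Insig1 in female nicotine, no filter 0.00254 and the 2 groups alone 0.00416 for Sqle there. With the myelin covariate, female nicotine gave 0.0483 for Fdps, -0.0981 for Fdft1 and 0.0282 for Insig1, female no nicotine -0.0436 for Sqle and -0.0318 for Fnta (called in the main test), male nicotine -0.00725 for Insig1, male no nicotine -0.247 for Fdps, -0.0788 for Sqle and -0.116 for Insig1, and nicotine against no nicotine in males 0.144, 0.0376 and 0.109 for the same genes. With the cortical covariate the values were -0.0902 for Fdft1 in female nicotine, -0.149 for Sqle in female no nicotine, 0.011 for Sqle between the female aerosols, 0.127 for Fdps, 0.0094 for Sqle and -0.0295 for Insig1 in male nicotine, -0.0504 for Insig1 in male no nicotine and 0.021 for Insig1 between the male aerosols. The replicate block gave -0.0124 for Idi1 and -0.011 for Insig1 between the female aerosols. Leaving out 1 library, the ranges that crossed 0 were -0.262 to 0.00619 (Fdps), -0.0503 to 0.0271 (Insig1) and -0.0265 to 0.0287 (Sqle) in female nicotine, -0.0576 to 0.0379 (Fdft1) in female no nicotine, -0.0443 to 0.217 (Idi1) and -0.00109 to 0.0952 (Insig1) between the female aerosols, -0.131 to 0.0589 (Fdps), -0.00562 to 0.101 (Insig1) and -0.0306 to 0.000789 (Sqle) in male nicotine, -0.0819 to 0.151 (Fdps) in male no nicotine and -0.181 to 0.0512 (Fdps) between the male aerosols. Among the genes with counts, Idi1 and Fdps had the fewest, with fewer than 54 counts in every library.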
